A study of Mus musculus with 10 samples.

Results

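The windows at the starts of 7 sperm chromatin genes were each most methylated in 2-month wild-type (WT) mouse oocytes. Among these genes, 18.1% to 84.2% of CpG calls were methylated there. The shares were 0.493% to 16.2% in 11-month WT and 0% to 10.7% in 2-month Tet2 knockout (Tet2KO) oocytes. With equal weight for each covered CpG position, the ranges were 18.0% to 55.3%, 0.571% to 13.2% and 0% to 5.56% in the same order. The genes were Prm1, Prm2, Prm3, Tnp1, Tnp2, Hmgb4 and H1f7. They were chosen by name, with their levels in these pools already known, so that the levels below are a description and no test of them is given. A 2000 bp window belonged to a gene when its centre lay within 200 bp of the gene's start in mm10. This gave 9 windows for the 7 genes, of 40537 nuclear windows listed for all 3 pools and 18385 gene symbols with such a window.

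The mature eggs, arrested at metaphase II, came from C57BL6/129 mice. The groups were WT at 2 months (young WT below, 4 libraries), WT at 11 months (old WT, 3 libraries) and Tet2KO at 2 months (3 libraries). Tet2 encodes a dioxygenase that oxidises 5-methylcytosine, and the labels do not say which allele was deleted or in which cells. The labels also conflict on the input, with 10 oocytes per sample in one place and a single oocyte in another. Each group was deposited as a single pool, so there is no replicate spread, no library can be left out, and every interval below covers counting error only. Several calls can stem from the same read or from copies of it, which makes those intervals too narrow.

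During the last steps of sperm formation, spermatids replace most of their histones, first with transition proteins and then with protamines, which are small arginine-rich proteins that pack the DNA tightly. Prm1 and Prm2 encode the protamines, and Tnp1 and Tnp2 the transition proteins. Prm3 lies in the same gene cluster and encodes an acidic spermatid protein. H1f7 encodes the spermatid linker histone H1T2, and Hmgb4 a testis protein with high-mobility-group boxes. Oocytes do not use this packaging system.

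The pools differed in depth, with 8610762 calls in Tet2KO, 15046863 in young WT and 30431118 in old WT, of which 36.5% to 44.2% were mitochondrial. Per shared nuclear window the median depth was 131 (young WT), 245 (old WT) and 79 calls (Tet2KO). Imprinted genes served as markers of oocyte DNA, in which the maternally methylated ones are high. Among 13 measured genes of a list of maternally methylated imprinted genes, the median level was 96.1% in young WT, 95.5% in old WT and 90.9% in Tet2KO, while 3 genes lay under 20% in each. H19, methylated on the paternal copy, was at 4.21%, 1.61% and 2.5%. The Tet2 window was at 14.0% of 214 calls, 7.12% of 969 and 2.87% of 349, which does not check the deletion.

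The sequences just upstream of the starts hold few CpGs. The 250 bases before the start of 5 of the genes are given 5′ to 3′ on the gene's strand (the minus strand in each case), with each CpG in capitals, since only a CpG can contribute a call here. Prm2 and Tnp2 had the highest levels, Prm1 and Tnp1 encode the other DNA-binding protamine and transition protein, and H1f7 had the lowest level. They come from RefSeq (GRCm38.p6, the assembly that mm10 represents), where all 7 genes had an entry.
Prm2, chr16:10792106-10792355: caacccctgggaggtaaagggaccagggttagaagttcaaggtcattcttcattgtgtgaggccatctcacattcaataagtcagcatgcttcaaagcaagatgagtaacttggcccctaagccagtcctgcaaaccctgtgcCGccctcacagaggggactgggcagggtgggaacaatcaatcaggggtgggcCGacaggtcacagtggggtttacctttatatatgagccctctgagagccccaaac
Tnp2, chr16:10788656-10788905: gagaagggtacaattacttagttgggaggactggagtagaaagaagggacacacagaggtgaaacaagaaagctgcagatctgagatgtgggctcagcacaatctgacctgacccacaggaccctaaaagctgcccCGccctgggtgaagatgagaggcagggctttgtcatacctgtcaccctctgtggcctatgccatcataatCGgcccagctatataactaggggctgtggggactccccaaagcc
Prm1, chr16:10796824-10797073: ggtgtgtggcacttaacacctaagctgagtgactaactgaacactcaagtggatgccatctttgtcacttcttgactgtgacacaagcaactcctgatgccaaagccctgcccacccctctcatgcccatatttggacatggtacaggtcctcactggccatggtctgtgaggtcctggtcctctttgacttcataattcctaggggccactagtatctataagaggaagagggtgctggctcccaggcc
Tnp1, chr1:73015900-73016149: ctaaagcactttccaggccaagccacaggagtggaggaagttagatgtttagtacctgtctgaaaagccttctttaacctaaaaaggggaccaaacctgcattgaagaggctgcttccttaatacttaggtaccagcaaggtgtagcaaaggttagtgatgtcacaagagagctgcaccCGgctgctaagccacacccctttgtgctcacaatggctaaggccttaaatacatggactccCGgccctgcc
H1f7, chr15:98257308-98257557: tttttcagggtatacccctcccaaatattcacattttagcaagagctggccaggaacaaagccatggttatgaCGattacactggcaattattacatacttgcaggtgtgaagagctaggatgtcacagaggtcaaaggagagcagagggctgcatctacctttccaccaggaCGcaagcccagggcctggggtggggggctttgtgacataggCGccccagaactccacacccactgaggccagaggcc
The Prm1 stretch has 0 CpGs, those of Prm2, Tnp1 and Tnp2 have 2 each, and that of H1f7 has 3. Over the 300 bases from 250 before to 50 after the start, the 7 genes have 1 to 6 CpGs, against a median of 7 in 32851 RefSeq promoters. Tnp1 and H1f7, with 6 each, are close to that median, and 47.9% of all promoters have as few. For Prm1, with 1, that share is 14.1%. The windows nevertheless had 24 to 47 covered CpG positions in young WT, so most of the measured CpGs lay elsewhere in the 2000 bp. For 6 of the 7 genes the window contains the whole annotated gene, from 407 bp for Prm3 to 826 bp for Tnp1. Of H1f7, 1000 of 1326 bp lie inside.

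The same promoters were searched for sites of the cAMP response element type, to which CREM, an activator of spermatid genes, binds. The full element TGACGTCA, searched on both strands, was in 0 of the 7 promoters and in 1.79% of all promoters. The looser form TGANNTCA, which was added after the promoters had been seen and which includes the full element, was in 4 of the 7 and in 14.1% of all. Its matches were TGACTTCA in Prm1, beginning 64 bases before the start, TGAGGTCA in Prm3 at 60, TGATGTCA in Tnp1 at 94 and TGACATCA in Hmgb4 at 74. The short form TGACG, also a part of the full element, was in H1f7 alone of the 7 and in 20.8% of all promoters. TATAAA was in Prm2 alone of the 7, on the opposite strand, and in 13.6% of all. A match describes the sequence and does not show that a factor binds there.

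The protamine genes Prm1 and Prm2 were methylated at most of their calls in young WT. Prm2 (window chr16:10791106-10793105) was at 80.3% of 508 calls in young WT (Wilson 95% interval 76.6 to 83.5), 0.971% of 206 in old WT (0.267 to 3.47) and 1.33% of 75 in Tet2KO (0.236 to 7.17). The young WT interval lies far above both others, which overlap. The difference of old from young WT was -79.3 percentage points (points below; Newcombe 95% interval -82.6 to -74.9), and that of Tet2KO from young WT was -79.0 (-82.4 to -72.1). Prm1 (window chr16:10795887-10797886) was at 70.2% of 336 calls, 16.2% of 99 and 10.7% of 28 in young WT, old WT and Tet2KO. It was the highest of the 7 genes in the latter pools, although its Tet2KO level rested on 3 methylated calls (interval 3.71 to 27.2). Its differences were -54.1 points with age (-61.6 to -44.2) and -59.5 in Tet2KO (-67.9 to -42.3).

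The transition protein genes Tnp1 and Tnp2 were likewise highest in young WT. Tnp2 (window chr16:10787656-10789655) was at 84.2% of 411 calls in young WT (80.3 to 87.4), 2.23% of 179 in old WT (0.872 to 5.6) and 1.52% of 66 in Tet2KO (0.268 to 8.1). Its differences, -82.0 points with age (-85.4 to -76.8) and -82.7 in Tet2KO (-86.1 to -75.0), were the widest of the 7. Tnp1 lies on another chromosome (window chr1:73014910-73016909). It was at 65.6% of 154 calls, 2.36% of 127 and 0% of 33, and 0 methylated calls of 33 allow a level of up to 9.09%. Its differences were -63.2 (-70.4 to -54.3) and -65.6 points (-72.6 to -52.6).

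Prm3, Hmgb4 and H1f7 made up the rest. Prm3 (window chr16:10789915-10791914) was at 72.2% of 316 calls, 0.493% of 203 and 2.17% of 46. That value cannot be told apart from Prm2, because the Prm3 window shares 809 bp with the Prm2 window and contains 538 of the 729 bp of the Prm2 gene. Hmgb4 (window chr4:128259958-128261957) was at 45.7% of 70 calls, 6.06% of 33 and 0% of 39, the last allowing up to 7.69%. Its differences were -39.7 (-52.0 to -22.1) and -45.7 points (-57.3 to -31.4). H1f7 (window chr15:98256308-98258307) was the mildest case, at 18.1% of 238 calls (13.7 to 23.4), 4.44% of 473 (2.92 to 6.69) and 2.87% of 174 (1.23 to 6.55). Its differences of -13.6 (-19.2 to -8.71) and -15.2 points (-20.8 to -9.48) stayed under 20 points.

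**Figure D1:**
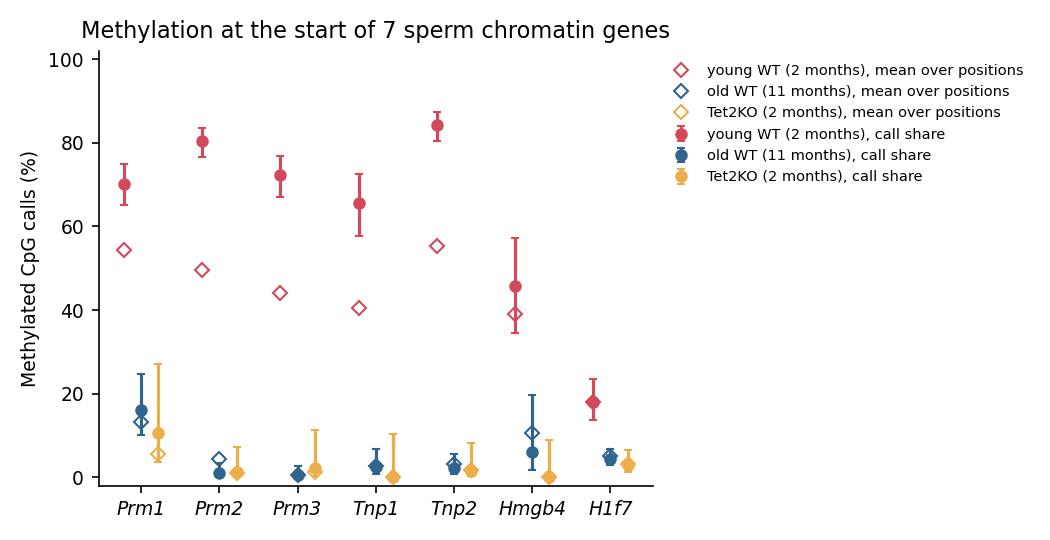
Methylation level of the window at the start of each gene, in percent, for the 3 pools. Filled circles are methylated calls over all calls with Wilson 95% intervals (counting error only), and open diamonds are the deposited mean over CpG positions. Each gene is highest in young WT by either measure, from 18.1% to 84.2% of calls.

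By 20 points or more, 6 of the 7 genes were lower at 11 months and 6 of 7 were lower in Tet2KO than in young WT, and 0 were higher in either comparison. The exception in each case was H1f7. Over 1 window per gene symbol, 2.41% were lower by that much at 11 months (2.76% of all windows) and 2.8% were lower in Tet2KO (3.22% of all windows), while 2.04% and 2.47% of symbols were higher. With at least 50 calls in every pool, 3 of the genes remained and 2 of them were lower in each comparison, against 1.93% and 2.11% of such windows. Since the genes were chosen with these differences known, nothing is read from that contrast. The median difference of the 7 genes was -63.2 points with age and -65.6 in Tet2KO, while the medians of all windows were 0 and -0.241. The comparisons share the young WT pool, so a departure of that pool alone enters each of them.

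Between Tet2KO and old WT, which differ in age and genotype, 0 of the 7 genes were 20 points or more apart, against 1.69% of symbols higher and 1.34% lower. The differences ran from -6.06 points at Hmgb4 to 1.68 at Prm3, and every Newcombe interval included 0. Those intervals are wide where calls are few, as at Prm1 (-16.5 to 12.1) and Hmgb4 (-19.6 to 3.92), so differences of that size were not detectable at this depth.

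Within young WT the levels ran in the order Tnp2, Prm2, Prm3, Prm1, Tnp1, Hmgb4, H1f7. Tnp2 and Prm2 were not separated beyond counting error (difference 3.87 points, -1.15 to 8.75), nor were Prm3 and Prm1, or Prm1 and Tnp1. Tnp1 lay above Hmgb4 by 19.9 points (5.9 to 33.1), and Hmgb4 above H1f7 by 27.6 (15.3 to 40.0). Prm2 lay above Prm3 by 8.16 points, but those windows overlap. This order holds for the share of calls only. By the deposited mean over positions, Tnp1 and Hmgb4 were close (40.6% and 39.0%), and Prm1 (54.3%) lay above Prm2 (49.6%). In old WT and in Tet2KO, no neighbours in the order were separated beyond counting error. Genes further apart in the order could be: in old WT the Prm1 interval (10.2 to 24.7) lay above that of H1f7 (2.92 to 6.69). It overlapped that of its neighbour Hmgb4 (1.68 to 19.6, from 33 calls).

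The deposited fraction, which gives each covered CpG position equal weight, put the young WT levels lower. It was 55.3% at Tnp2, 54.3% at Prm1, 49.6% at Prm2, 44.0% at Prm3, 40.6% at Tnp1, 39.0% at Hmgb4 and 18.0% at H1f7. At Prm2, Tnp2, Prm3 and Tnp1 the share of methylated calls exceeded it by 30.7, 28.9, 28.2 and 25 points. Methylated calls were thus concentrated on positions that were read more often. An excess of 20 points or more occurred at 58 of all 40537 windows in young WT, or 0.143%, and 5 of them are among the 9 windows of these genes (both Tnp1 windows and those of Prm2, Prm3 and Tnp2). Those 5 are not separate observations, since the Tnp1 windows share 1874 bp and those of Prm2 and Prm3 share 809 bp. In the other pools 0 of the 7 genes had an excess of 20 points or more. The largest there was at Prm1, with 2.94 points in old WT and 5.16 in Tet2KO. By the deposited fraction the genes still differed from young WT by -52.2 to -12.8 points with age and by -53.5 to -14.7 in Tet2KO, and 6 of 7 were lower by 20 points or more in each (2.64% and 3.21% of all windows).

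The depth of these windows was also unlike that of the rest of the pool. Prm2 had 16.9 calls per covered position in young WT, 6.65 in old WT and 2.88 in Tet2KO, while the medians of all windows were 2.8, 4.24 and 2.04. Tnp2 had 13.3 calls per position in young WT, Prm1 11.6 and Prm3 10.2, a depth reached by 0.222% or fewer of all windows. Tnp1 and H1f7 were closer to the rest, at 4.97 and 5.06, and Hmgb4 was near the median, at 2.92. A window typically held 0.551 calls in young WT for each call in old WT. That ratio was 3.39 at Prm1, 2.47 at Prm2, 2.3 at Tnp2, 2.12 at Hmgb4, 1.56 at Prm3, 1.21 at Tnp1 and 0.503 at H1f7, the gene with the lowest level.

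**Figure D2:**
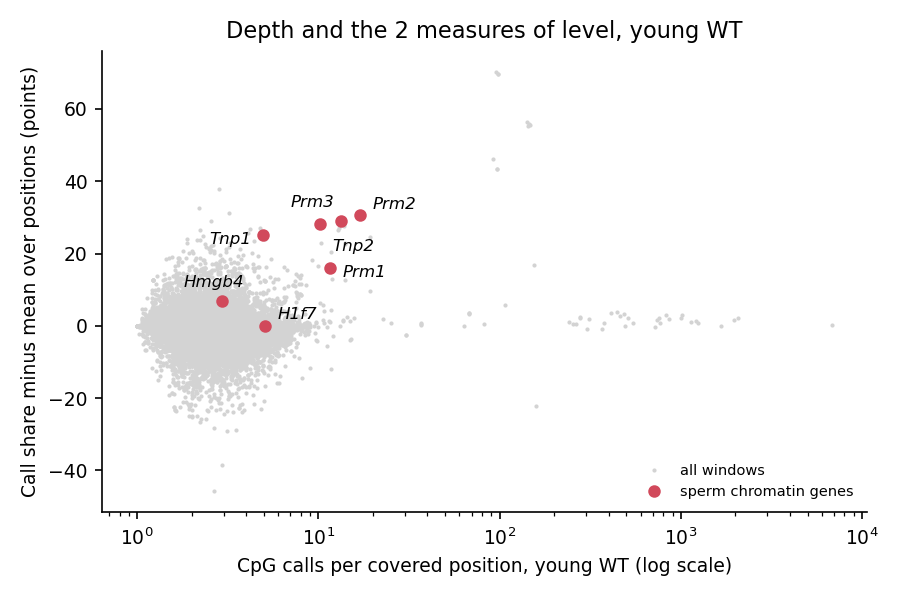
Each point is a shared nuclear window in young WT. The horizontal axis (log scale) is the number of calls per covered CpG position and the vertical axis is the share of methylated calls minus the deposited mean over positions, in points. Prm2, Tnp2, Prm3, Tnp1 and Prm1 lie apart from most windows, while Hmgb4 and H1f7 lie among them.

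At Tnp2, Prm2, Prm3 and Tnp1 the surplus of calls in young WT lay in methylated calls. Tnp2 had 346 methylated and 65 unmethylated calls in young WT, 4 and 175 in old WT, and 1 and 65 in Tet2KO. Prm2 had 408 and 100, 2 and 204, and 1 and 74. Unmethylated calls alone kept roughly the ratio of the pools: the median ratio of young to old WT was 0.436 for the 7 genes and 0.536 for all windows. Prm1 and Hmgb4 had higher ratios, 1.2 and 1.23. Prm2, Tnp2, Prm1 and Prm3 had the most calls per position and also the highest levels. By the excess over the positional mean the order was Prm2, Tnp2, Prm3, Tnp1, Prm1, Hmgb4, H1f7, close to the order by level. The excess is the level minus that mean, so some likeness to the order by level is built in and nothing is read from it. The orders were not identical: H1f7, the lowest in level, had more calls per position than Tnp1 and Hmgb4. Prm1 had a smaller excess than Tnp1 but a higher level. The part of depth and of this excess in the levels was not tested.

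**Figure D3:**
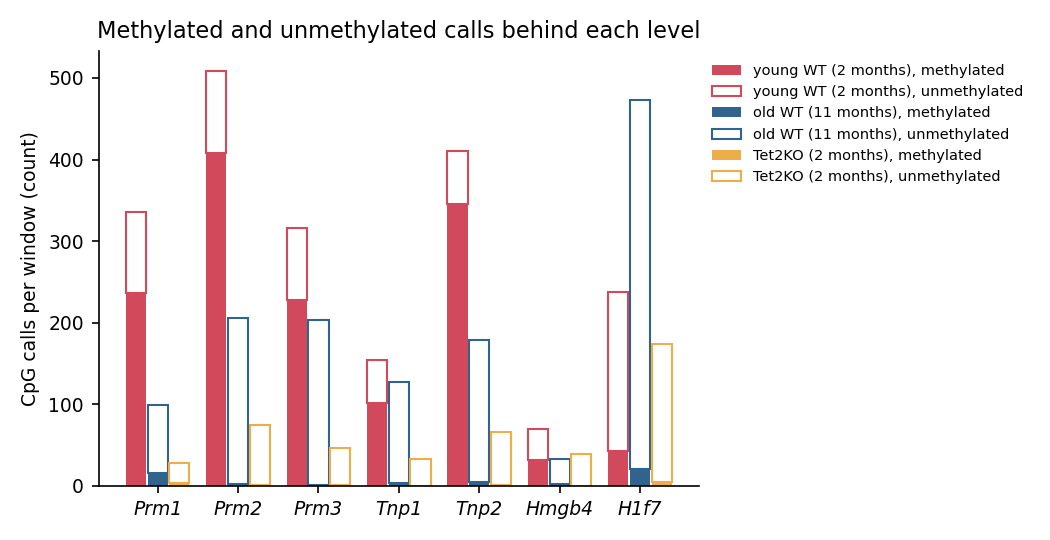
Number of methylated (filled) and unmethylated (open) CpG calls in the window of each gene, stacked, for the 3 pools. Prm2 holds 408 methylated calls in young WT and 2 in old WT, and H1f7 holds mostly unmethylated calls in every pool.

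In young WT, shifted windows over the same genes held the same number of methylated calls. A further Tnp1 window, shifted by 126 bp, and a window just beyond the 200 bp limit, with its centre 209 bp from the start, each held 101 methylated calls in young WT, as did the Tnp1 window used above. Their levels were 66.0% and 66.4%. The second Hmgb4 window, shifted by 86 bp and with its centre 148 bp from the start, held 32 methylated calls, as did the first, and was at 41.0%. A window shifted by 752 bp towards the far end of Prm1 held 236 methylated calls, the number in the Prm1 window itself. In the other pools that shifted Prm1 window was lower than the Prm1 window, at 12 methylated of 90 calls in old WT (13.3%, against 16 of 99) and 0 of 26 in Tet2KO (against 3 of 28), where 0 calls allow a level of up to 11.5%. In each case the stretch common to the windows contains the whole gene.

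On chromosome 16 the high level stopped between Tnp2 and Socs1, a suppressor of cytokine signalling. The Socs1 window lies 1119 bp beyond the Tnp2 window and was at 3.17% of 630 calls in young WT (2.06 to 4.85), 6.03% of 1276 in old WT and 3.77% of 159 in Tet2KO. Between them the windows of Tnp2, Prm3, Prm2 and Prm1 span the cluster, with 259 bp unmeasured between Tnp2 and Prm3 and 2029 bp between Prm2 and the window at the far end of Prm1. On the other side, the next listed window lies 14028 bp away and was at 11.8% of 17 calls in young WT and 9.09% of 22 in old WT. Of the remaining windows within 100 kb, that of Rmi2, a subunit of a genome stability complex, was at 1.94%, 0.443% and 0.709%. A window without a gene symbol was at 2.73% of 110 calls, 5.66% of 106 and 27% of 37, higher in Tet2KO than in the other pools.

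**Figure D4:**
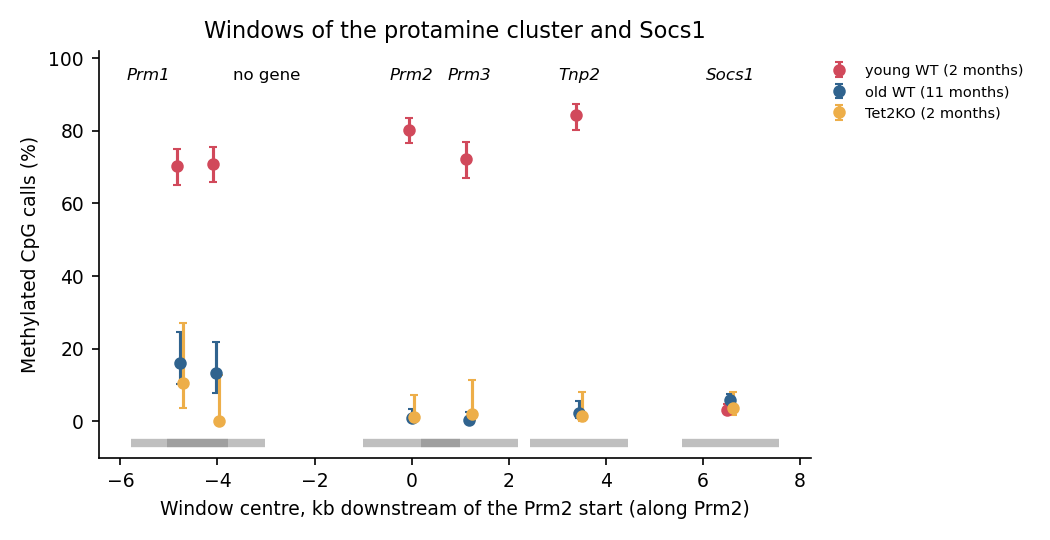
Methylation level in percent (with Wilson 95% intervals, counting error only) of each window of the chromosome 16 cluster and of Socs1, placed by the distance of its centre from the Prm2 start in kb. Grey bars show the extent of each window. Prm1 to Tnp2 lie at 70.2% to 84.2% in young WT, and Socs1 at 3.17%.

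Regulators and partners of the histone-to-protamine exchange were mostly low in all pools. The list holds transcription factors, chromatin proteins and histone variants, and 35 of its 40 genes had a window. Their median level was 4.46% in young WT, 2.21% in old WT and 1.37% in Tet2KO. Lower by 20 points or more were 3 at 11 months and 4 in Tet2KO, and 0 and 1 were higher (the shares of all symbols are 2.41% and 2.8% lower, 2.04% and 2.47% higher), while the median differences were -0.741 and -0.917 points (0 and -0.337 over all symbols). H3f3b, which encodes the histone variant H3.3, was at 37.8% of 465 calls, 2.42% of 908 and 1.09% of 183. Parp2, a poly(ADP-ribose) polymerase, was at 25.8%, 2.96% and 0%, and the histone gene H2bu2 at 28.2%, 1.93% and 4.88%. Hspa2, a spermatocyte chaperone that binds transition proteins, was at 21.6%, 2.5% and 1.3%. Fhl5, a coactivator of CREM, was at 77.3% of 22 calls, 90.0% of 20 and 100% of 16, and its differences from young WT were within counting error (-11.0 to 34.7 points in old WT, -0.375 to 43.4 in Tet2KO). Crem itself was at 5.46%, 2.21% and 0%. Among the genes with the most calls, Tssk6, a testis serine kinase, was at 13.6% of 861 calls, 0.373% of 1071 and 0.388% of 258, and the chromatin genes Cdyl, Sirt1 and Set were under 10% in every pool. Hils1, another spermatid linker histone gene, was at 97.9%, 97.1% and 100%.

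A list of genes of sperm structure and metabolism was read in the same way. Of 40 genes 31 had a window, 8 of these were lower by 20 points or more at 11 months and 8 in Tet2KO (2.41% and 2.8% of all symbols), and 1 was higher in each (2.04% and 2.47%). Their median differences were -2.47 and -3.32 points (0 and -0.337 over all symbols). The gene of the equatorial segment protein Spesp1 was at 95.8% of 24 calls, 18.1% of 105 and 0% of 96. Pgk2, a testis glycolytic enzyme, was at 68.2% of 22 calls, 5.56% of 18 and 6.25% of 16. Dnajb3, a testis chaperone of the DnaJ family, was at 44.7% of 358 calls, 0.785% of 382 and 1.96% of 153. Capza3 and Odf1, of the sperm cytoskeleton and tail, were at 36.7% and 36.2% in young WT and at 3.12% to 4.55% in the other pools. Spaca1 of the acrosome, Spata3 and the sperm calcium channel gene Catsper2 were at 30.8%, 31.9% and 20.8% in young WT and at most 6.35% elsewhere. Gapdhs, the sperm glyceraldehyde-3-phosphate dehydrogenase, was at 25.8%, 47.2% and 80%, from 30 to 36 calls, and its difference at 11 months was within counting error (-1.74 to 41.3 points). Odf2, Hook1 and Spag6 were low throughout. By counts, 25.8% of this list and 6 of the 7 chromatin genes were lower at 11 months, and the difference between the lists was not tested.

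**Figure D5:**
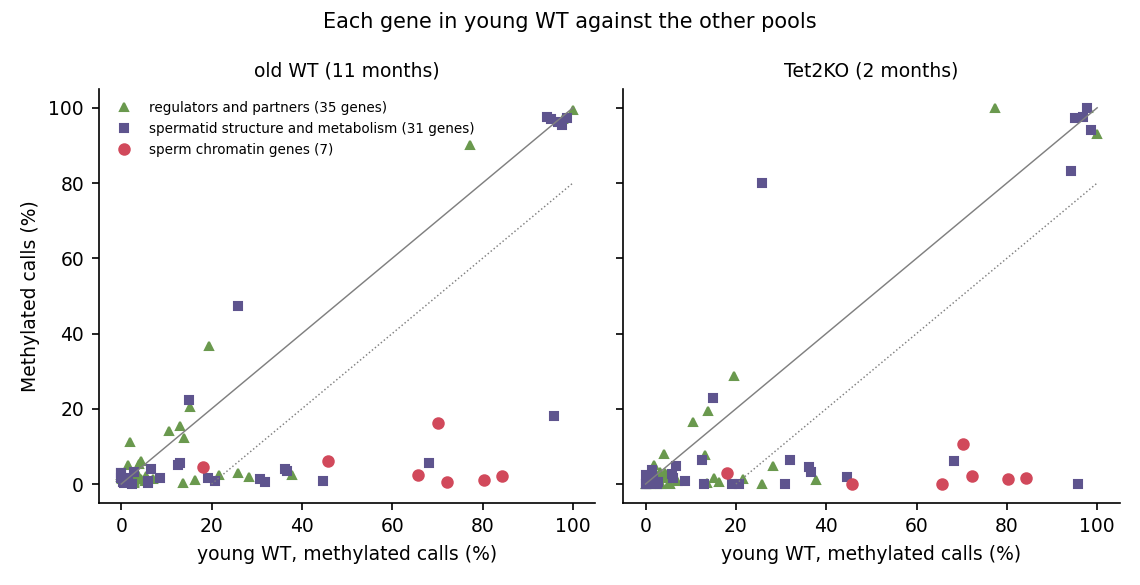
Methylated calls (%) of each gene in young WT (horizontal) against old WT (left) and Tet2KO (right). The solid line marks equal levels and the dotted line 20 points lower. Of the sperm chromatin genes, 6 of 7 lie below the dotted line, as do 3 of 35 regulators and 8 of 31 structure and metabolism genes at 11 months.

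Among 12743 other symbols with at least 50 calls in every pool, 5 were nearest to Tnp2, the gene with the widest range, in their levels over the 3 pools. Likeness was the Euclidean distance over 3 pool levels, so it rests on 3 points. Hspa1b, an inducible heat shock protein, was nearest at 6.16 points, with 90.1%, 1.19% and 0%. Prex2, an exchange factor for Rac, was at 76.0%, 0.861% and 2.3% (distance 8.34). Sap18b was at 73.5%, 1.28% and 3.97% (11.0), C920006O11Rik at 97.4%, 1.3% and 0% (13.4), and Rps29, a ribosomal protein gene, at 98.9%, 1.32% and 1.79% (14.7). Of these, C920006O11Rik and Rps29 were deeper than the sperm genes, with 95.8 and 141 calls per position in young WT. Hspa1b had 9.96, Sap18b 4.74 and Prex2 1.43, where the median of all windows was 2.8. The deposited fraction in young WT was 27.2% at C920006O11Rik, 42.6% at Rps29, 73.5% at Hspa1b, 61.3% at Sap18b and 81.9% at Prex2. By the deposited fraction 0 of these 5 stayed among the nearest, and the nearest was Rpl41, another ribosomal protein gene.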

How the data were processed

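The labels' protocols describe low-input bisulfite libraries, and bisulfite does not separate methylcytosine from hydroxymethylcytosine. The submitters' processing notes name Trimmomatic, Bismark (version field 12.5) and mm10 and assign no role to them. Any other step is not given in the sources used here. For each window, the authors' files have deposited counts of methylated CpG calls, the deposited coverage (all CpG calls) and the number of covered positions; unmethylated calls are the coverage minus the counts. The deposited fraction is the mean over positions of the methylated share. No listed window has under 10 calls or 5 positions. A truncated final X chromosome line of the young WT (2-month) file was dropped.

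Levels are 100 times methylated calls over all calls. Values are pooled per group, so no test was run. The members and lists were chosen with earlier results of these data known. Windows took the symbols of genes starting within 200 bp of their centre by RefSeq promoters. Genes without a promoter entry were named by either end of the gene where windows lay at 1 end only. Each gene has 1 window, chosen by its smallest depth over the pools (largest first) and then by distance. Named genes are the 7 members, the windows within 100 kb of the cluster, list genes 20 points apart in any comparison or among the 4 of a list with the most calls over all pools, and the 5 nearest in pattern. A few others (Crem, Hils1, Rpl41, the imprinted genes and Tet2) were chosen after their values were seen. The cumulus and granulosa list (Amh, Fshr, Foxl2, Inha, Ptx3, Has2, Cyp19a1) had 5 genes with a window, at medians of 7.14%, 1.93% and 1.58% (order as in the report). Promoter methylation does not show whether such cells were present. The limit for 0 calls is 3 calls. Interval code was tested on simulated data with independent calls, which does not cover several calls from the same read or its copies. Alternatives were the deposited fraction, at least 50 calls, thresholds of 10 and 30 points, intervals that exclude 0, and centres within 50 or 1000 bp. Python 3.11.15, numpy 2.4.6, pandas 2.3.3, scipy 1.17.1 and matplotlib 3.10.9 were used.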

Additional observations from a re-analysis of the deposited data

How the results depend on the processing

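No paired analysis was possible because each group was deposited as a single pool, and leaving out replicates was not run for the same reason. With at least 50 calls in every pool, 3 of the 7 genes remained measurable (Prm2, Tnp2 and H1f7), of which 2 were lower by 20 points or more at 11 months and 2 in Tet2KO. The member counts stayed within 1.5 times under the other alternatives. With centres within 50 bp, 4 rather than 6 genes were lower at 11 months and in Tet2KO. Prm1 and Hmgb4, whose centres lie 63 and 62 bp from the start, had no window at that distance. Over all windows, the 1126 higher and 1120 lower at 11 months became 212 and 468 with at least 50 calls, 2579 and 3139 at 10 points, and 596 and 506 at 30 points. The 1332 higher and 1307 lower in Tet2KO became 242 and 511, 2921 and 3636, and 690 and 587. The 847 higher and 788 lower in Tet2KO than in old WT became 145 and 157, 2300 and 2365, and 398 and 344. A stricter threshold or depth leaves fewer windows by construction. By the deposited fraction, 10 of 21 member differences left their counting interval and 0 changed sign where the interval excluded 0. Tet2KO levels at Prm1, Tnp1, Hmgb4 and Prm3 rest on 28 to 46 calls.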

Other observations

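The differences were also counted by the annotated span of the gene. Of 18384 symbols with an annotated span, 455 (2.47%) span up to 1000 bp, and 6 of the 7 sperm chromatin genes are among them. Those 6 were chosen with their levels known. They are included in the counts of short genes lower at 11 months and in Tet2KO. At 11 months, 38 of the 455 (8.35%) were lower by 20 points or more and 18 (3.96%) were higher, while 405 of 17929 longer genes (2.26%) were lower and 357 (1.99%) higher. In Tet2KO, 41 short genes (9.01%) were lower and 22 (4.84%) higher, against 2.64% and 2.41% of longer genes. Between Tet2KO and old WT, 9 short genes were lower (1.98%) and 15 higher (3.3%), against 1.32% and 1.65% of longer genes. The span split was chosen after the levels were seen, and the difference between short and long genes was not tested. Depth and CpG content were not matched between them.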
